A study of Homo sapiens with 47 samples.

Results

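The mucosal secretory and defence genes described here are 10 genes that epithelia of the airway, gut and glands use to coat and protect their surfaces: PI3, SLPI, WFDC2, LCN2, AGR2, MUC1, MUC5AC, MUC5B, MUC16 and PIGR. They are 10 of the 62703 genes in the deposited RNA tables, and each was found by its symbol. The list was selected on the RNA differences between these same libraries, so the RNA values of the members are given as a description, without a test. The 2 chromatin marks at their promoters are separate measurements and were tested. Of the 10 members, 6 passed the filter on low values in the RNA comparisons (at least 10 normalised reads in at least 3 libraries), namely PI3, SLPI, LCN2, AGR2, MUC5B and MUC5AC; the other 4 were near or at 0 reads.

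The study used PC3, an established human prostate cancer cell line, in 3 forms: cells carrying an empty vector, cells overexpressing DDC and cells overexpressing SLC6A4. DDC is the decarboxylase that makes serotonin and dopamine, and SLC6A4 is the transporter that carries serotonin into cells. Its 47 samples comprise 9 of RNA sequencing (3 per form), 27 of ChIP sequencing (an antibody to H3K4me3, an antibody to H3K4me3Q5ser and an input, 3 each per form) and 11 of CUT&Tag, an assay that cuts and tags chromatin next to a bound antibody. The CUT&Tag samples add SLC6A4 cells with a short hairpin RNA against TGM2, of which 1 library is used here, and DDC cells labelled TG2-IN-1, which are not analysed here. H3K4me3 is the trimethylated lysine that marks active promoters, and H3K4me3Q5ser is the same tail carrying serotonin on the adjoining glutamine, which transglutaminase TGM2 can attach. No source used here says whether the 3 samples of a form came from separate transductions or cultures, so p-values measure only the spread between these samples. The labels name no promoter for the constructs and no clone.

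Mucosal surfaces are guarded by a gel and by small secreted proteins within it. Large gel-forming mucins are folded in the endoplasmic reticulum with the help of AGR2, packed into granules and released by goblet and gland cells, while membrane-bound mucins cover the cell surface itself. Antiproteases such as elafin and SLPI restrain neutrophil elastase, and lipocalin-2 starves bacteria of iron. PC3 came from a bone metastasis of a prostate adenocarcinoma, and prostate epithelium is itself a secretory epithelium.

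RNA libraries held 17284019 to 21745703 reads in genes. ChIP libraries held 13511040 to 24765380 read pairs in the counted regions for H3K4me3Q5ser, 3429714 to 5811116 for H3K4me3 and 1394509 to 1833609 for the input, so small changes of the input were the least well measured. DDC had 23 to 31 reads in each DDC library and 0 to 3 in each other library, and SLC6A4 had 94 to 130 reads in each SLC6A4 library and 0 to 1 in each other library. The epithelial markers KRT8, KRT18, KRT19 and EPCAM summed to 25280 to 30866 normalised reads in the empty-vector libraries, 16159 to 19694 with DDC and 23491 to 25649 with SLC6A4, and none of the 4 was at 0. By limma 4 of 4 were called lower with DDC and 3 of 4 with SLC6A4 (EPCAM log2 differences -1.91 and -0.43), beside 8.41% and 9.28% of all genes. Their part in the differences below was not tested. The neutrophil granule genes MPO, ELANE and CEACAM8 had 0 reads in the empty-vector libraries. In bulk samples such as these, fewer cells expressing a gene and less RNA per cell cannot be told apart.

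The antiproteases were by far the most abundant members. In CPM per kilobase of exon (CPM scales the counts of each library to the same total), the empty-vector cells held 2517 ± 91.9 (SD, n = 3) for PI3 and 1325 ± 32.1 for SLPI, which placed these genes 37th and 63rd of 62625 genes with a known length. LCN2 stood at 124 ± 5.98 and AGR2 at 49.1 ± 1.68 on the same scale. The gel-forming mucins MUC5B and MUC5AC stood at 2.61 ± 0.278 and 1.75 ± 0.343, and MUC1, WFDC2, PIGR and MUC16 were all under 0.2. Each of the 6 measured members differed from its neighbour in this order by more than either SD, whereas MUC1 and WFDC2 did not differ beyond their SDs, nor did PIGR and MUC16. Among these 6 the order was the same in the other forms, down to 0.606 ± 0.0991 for MUC5B and 0.349 ± 0.0598 for MUC5AC with DDC, and 0.289 ± 0.0499 and 0.126 ± 0.0233 with SLC6A4.

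**Figure D1:**
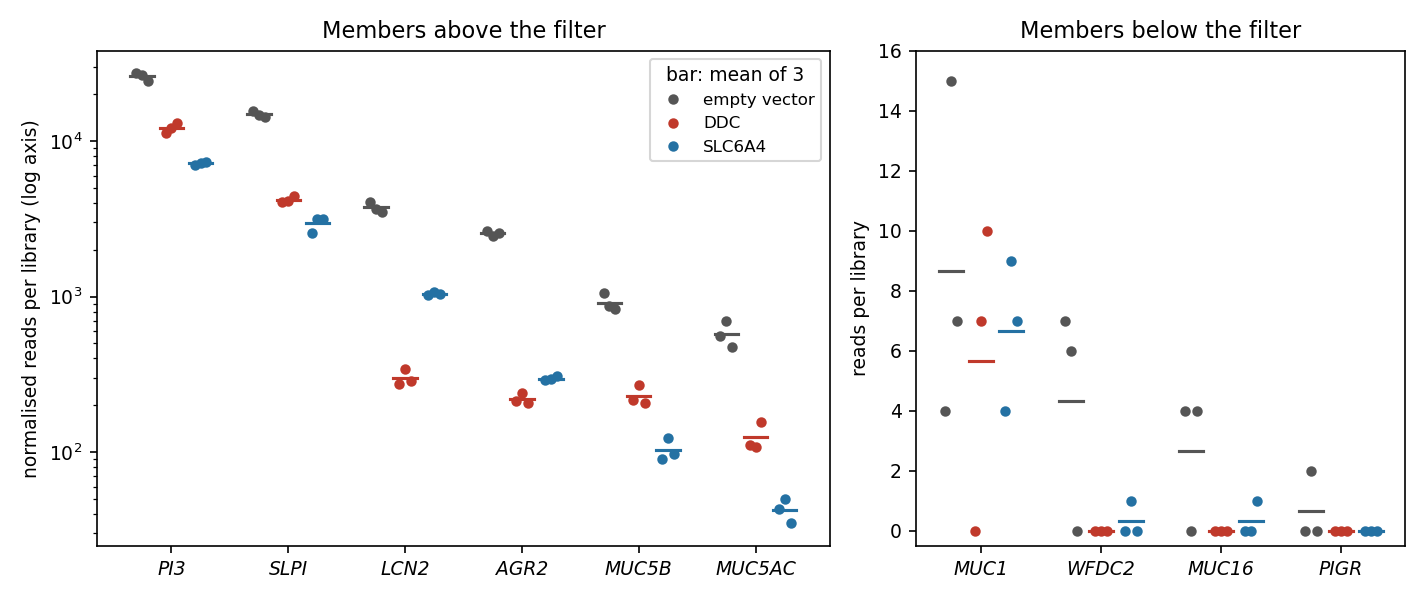
RNA of the 10 members in each of the 9 libraries, with the empty-vector cells in grey, DDC cells in red and SLC6A4 cells in blue; points are libraries and bars are means of 3. The left panel shows normalised reads on a log axis for the 6 members above the filter, where every empty-vector library lies above every DDC and SLC6A4 library. Nothing is read from this separation, because the members were selected on these RNA differences. The right panel shows reads on a linear axis for the other 4, which reach at most 15.

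All 6 measured members were lower in both overexpressing forms, by 2.14-fold to 12.4-fold with DDC and by 3.58-fold to 13.2-fold with SLC6A4. The sizes did not follow one order: LCN2 and AGR2 were the lowest relative to the empty vector with DDC, and MUC5AC and MUC5B with SLC6A4. Called lower by limma at an adjusted p under 0.05 were 6 of the 6 with DDC, where 8.41% of the 13146 genes tested were called lower, and 6 of the 6 with SLC6A4, where 9.28% of 13264 were. Nothing is read from these counts, because the list was drawn up on these differences. Both comparisons use the same 3 empty-vector libraries. Normalised reads are on the shared scale of the 9 libraries, and log2 differences come from the fit of each pair of groups.

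PI3 encodes elafin, an inhibitor of neutrophil elastase and proteinase 3. Its normalised reads were 27321, 26758 and 24362 in the empty-vector libraries, 11290, 12152 and 13084 with DDC, and 7055, 7226 and 7304 with SLC6A4. The groups did not overlap, and the SLC6A4 libraries were the lowest. The log2 difference from the empty vector was -1.10 (SE 0.08) with DDC and -1.86 (SE 0.05) with SLC6A4.

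SLPI, the secretory leukocyte protease inhibitor, lies in the same gene cluster on chromosome 20. Its normalised reads were 15716, 14726 and 14210 in the empty-vector libraries, 4035, 4123 and 4404 with DDC, and 2578, 3147 and 3176 with SLC6A4. The order of the forms was that of PI3, with no overlap between the empty vector and the others. The log2 difference was -1.83 (SE 0.08) with DDC and -2.33 (SE 0.07) with SLC6A4.

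LCN2 (chromosome 9, 128149071 to 128153453, GRCh38) encodes lipocalin-2, which binds the bacterial siderophores that carry iron. Its normalised reads were 4061, 3657 and 3522 in the empty-vector libraries, 272, 343 and 287 with DDC, and 1019, 1076 and 1036 with SLC6A4. Here the DDC libraries were the lowest, in contrast to the antiproteases. The log2 difference was -3.63 (SE 0.09) with DDC, the 22nd lowest of 13146 genes, and -1.84 (SE 0.06) with SLC6A4, the 86th lowest of 13264.

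AGR2 (chromosome 7, 16791811 to 16833433) is a protein disulfide isomerase of the endoplasmic reticulum that mucin-producing cells need to fold mucins. Its normalised reads were 2644, 2459 and 2564 in the empty-vector libraries, 214, 241 and 207 with DDC, and 289, 293 and 307 with SLC6A4. Both forms were low, with a small gap between them. The log2 difference was -3.53 (SE 0.09) with DDC, the 31st lowest, and -3.10 (SE 0.06) with SLC6A4, the 22nd lowest.

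MUC5B and MUC5AC are the main gel-forming mucins of airway mucus and are adjacent on chromosome 11. MUC5B had 1055, 865 and 828 normalised reads in the empty-vector libraries, 217, 268 and 206 with DDC, and 90.2, 123 and 97.6 with SLC6A4. MUC5AC had 559, 701 and 471 in the empty-vector libraries, 111, 108 and 157 with DDC, and 42.8, 49.9 and 34.9 with SLC6A4. Both mucins were lowest with SLC6A4, and no group overlapped another. The log2 difference of MUC5B was -1.98 (SE 0.11) with DDC and -3.13 (SE 0.12) with SLC6A4, and that of MUC5AC was -2.19 (SE 0.14) and -3.73 (SE 0.15), the 10th lowest of all genes tested with SLC6A4. MUC5B overlaps the antisense gene MUC5B-AS1, and with no stated strand setting for the RNA counts the reads of the pair cannot be told apart.

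The 4 other members gave few reads. MUC1 (chromosome 1, 155185824 to 155192916), a membrane-bound mucin of most glandular epithelia, had 4, 15 and 7 reads in the empty-vector libraries, 0, 7 and 10 with DDC, and 4, 9 and 7 with SLC6A4, and the groups overlapped. The ratio of its summed reads scaled to depth, empty vector over DDC, was 1.58 with a 95% counting interval of 0.823 to 3.09. WFDC2, which encodes the tumour marker HE4 of the same inhibitor family as PI3 and SLPI, had 7, 6 and 0 reads in the empty-vector libraries, 0 in every DDC library and 1 read in all SLC6A4 libraries together. Against a floor of 3 reads over the group, the empty-vector reads stood at a ratio of 4.46 to DDC. This ratio makes no allowance for counting error in the empty-vector reads or for the library with 0. The ratio of empty vector over SLC6A4 was 13.9 with an interval of 2.09 to 592. MUC16 (chromosome 19, 8848844 to 9010390), the membrane mucin that carries the CA125 antigen, had 4, 0 and 4 reads in the empty-vector libraries. It had 0 with DDC, a ratio of 2.75 against the same floor. With SLC6A4 it had 1 read, a ratio of 8.57 with an interval of 1.15 to 380. PIGR (chromosome 1, 206928522 to 206946466), the receptor that carries immunoglobulin A across epithelia, had 2 reads in 1 empty-vector library and 0 elsewhere. These intervals cover counting error only.

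**Figure D2:**
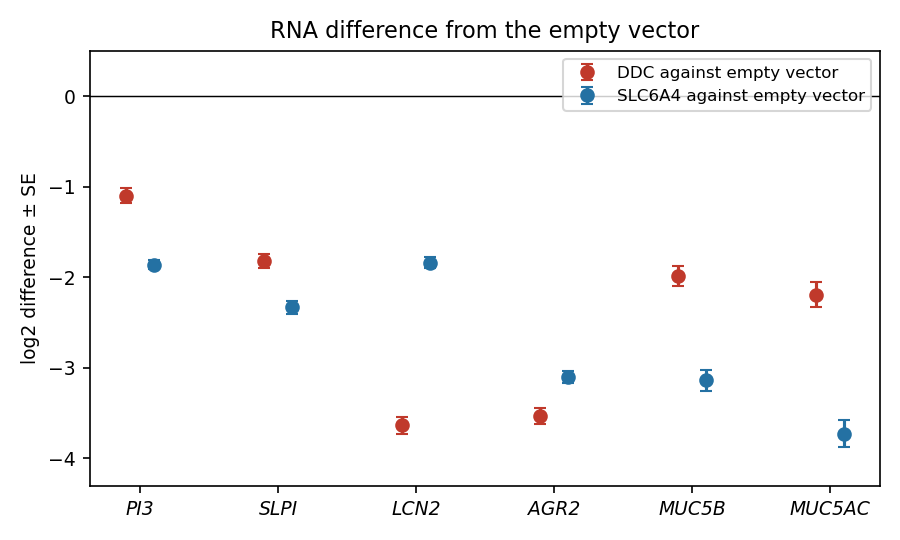
Log2 difference from the empty vector for the 6 measured members, DDC in red and SLC6A4 in blue, with the SE of the limma fit as bars. LCN2 is lower with DDC (-3.63) than with SLC6A4 (-1.84), whereas MUC5AC is lower with SLC6A4 (-3.73) than with DDC (-2.19).

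Placed directly against each other, the 2 overexpressing forms split the members into a pair of patterns. LCN2 was lower with DDC than with SLC6A4 (log2 difference -1.80, SE 0.08), and AGR2 by a smaller amount (-0.43, SE 0.08). The antiproteases and gel-forming mucins were higher with DDC than with SLC6A4, by 0.50 (SE 0.08) for SLPI, 0.76 (SE 0.07) for PI3, 1.15 (SE 0.13) for MUC5B and 1.53 (SE 0.16) for MUC5AC. Called by limma were 2 members lower and 4 higher, beside 6.74% of 13544 genes lower and 6.47% higher, and again nothing is read from the count. Across the 9 libraries the Pearson r of log2(value + 1) was 0.993 between PI3 and MUC5AC and 0.583 between LCN2 and MUC5AC, the highest and lowest of the member pairs; the 9 points fall into 3 groups and share normalisation, so these are descriptions of the group pattern.

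The genes most like each member over the same 9 libraries were named by the highest r among 13544 genes. For PI3 they were ISG20 (r = 0.995), an interferon-induced exonuclease, and the chemokine CXCL1 (0.994). For SLPI they were C15orf48 (0.995) and SAT1 (0.992), the enzyme that acetylates polyamines. For LCN2 they were the protease inhibitor SPINT1 (0.993) and PLEK2 (0.986), and for AGR2 the carboxypeptidase inhibitor LXN (0.994) and the calcium-binding S100A2 (0.994). MUC5AC lay closest to ISG20 (0.992) and PID1 (0.990), and MUC5B to MUC5B-AS1 (0.993) and DDIT4 (0.993).

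Other secretory and defence genes were counted in 7 lists of related genes, drawn up with earlier results of these data known, so their counts are a description. Over all genes tested, 8.41% were called lower and 8.94% higher with DDC. With SLC6A4 the shares were 9.28% and 10.2%. Among the antimicrobial proteins 2 of 15 genes were measured in the comparisons with the empty vector, S100A8 and S100A9, the subunits of calprotectin, and both fell in both forms. S100A9 averaged 3617 normalised reads in the empty-vector cells, 75.5 with DDC and 292 with SLC6A4, a log2 difference of -5.56 (SE 0.10, limma adjusted p = 1.5e-21) and -3.63 (SE 0.09, adjusted p = 1.2e-14). S100A8 averaged 456, 16.6 and 35.8, with log2 differences of -4.72 (adjusted p = 3.2e-16) and -3.67 (adjusted p = 9.2e-12). Like LCN2, S100A9 was lower with DDC than with SLC6A4 (log2 difference -1.93, limma adjusted p = 3.1e-11). Of the other 13 genes on the list LTF (lactoferrin), DEFB1 and BPI had 0 reads, and none exceeded 14.9 normalised reads in any library.

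Of 12 goblet and airway secretory genes, 6 were measured, and 5 of them were called lower and none higher in either comparison with the empty vector. Of all genes, 8.41% were called lower with DDC and 9.28% with SLC6A4. BPIFA1 and FCGBP are among the 5 in both, and they passed the filter on low values only through the empty-vector libraries, so the filter largely fixed their direction. The median log2 difference, which the same pair of genes pulls down, was -0.82 with DDC and -1.51 with SLC6A4, beside 0.01 over all genes in both. The trefoil peptides, small proteins secreted with mucins, were the most abundant. TFF1 fell with DDC (-0.79, limma adjusted p = 1.8e-07) and with SLC6A4 (-1.59, adjusted p = 6.8e-11). TFF3 fell by 0.59 with DDC (adjusted p = 0.00016) and by 0.81 with SLC6A4 (adjusted p = 1.3e-07). TFF2 fell with DDC (-0.85, adjusted p = 3.9e-06), while its log2 difference with SLC6A4 was -0.14 (adjusted p = 0.25). BPIFA1, a secreted airway defence protein, had 88 reads in all empty-vector libraries together and 1 with DDC (a ratio of 90.7 with a 95% counting interval of 15.9 to 3621). With SLC6A4 it had 0, a ratio of 31.4 against a floor of 3 reads. With BPIFA1 set at that ratio the SLC6A4 median stayed at -1.51.

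Among 10 other mucins only MUC6, a gastric gel-forming mucin, was measured. It passed the filter only through the empty-vector libraries, so a lower level was the only outcome open to this list, and its values are a description. It had 105 reads in all empty-vector libraries together, 4 with DDC and 5 with SLC6A4, ratios of 27.04 (95% counting interval 10.3 to 101) and 22.5 (9.34 to 70.7). Among 11 antiproteases 2 of 3 measured fell with DDC and 3 of 4 with SLC6A4, and none rose, beside 8.41% and 9.28% of all genes called lower. WFDC3, a neighbour in the family of PI3, fell by 1.23 with DDC (limma adjusted p = 2.7e-07) and by 1.18 with SLC6A4 (adjusted p = 5.0e-06). SERPINA1, the alpha-1 antitrypsin gene, fell by 2.17 (adjusted p = 3.1e-06) and by 0.96 (adjusted p = 0.0051), and in the DDC comparison it too passed the filter only through the empty-vector libraries. The cystatin CST3 fell with SLC6A4 (-0.36, adjusted p = 0.0048), and its log2 difference with DDC was 0.18 (adjusted p = 0.18).

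The enzymes that build the sugar chains of mucins were counted as a list of 15, of which 9 were measured. With DDC 5 fell and with SLC6A4 3, and none rose, beside 8.41% and 9.28% of all genes called lower. The medians were -0.37 and -0.28. ST3GAL1, a sialyltransferase of mucin-type chains, fell with SLC6A4 (-1.31, limma adjusted p = 4.5e-12) and slightly with DDC (-0.23, adjusted p = 0.030). GALNT1, which starts the chains, fell by 1.20 with DDC (adjusted p = 0.00012) and by 0.55 with SLC6A4 (adjusted p = 0.030). C1GALT1 and B3GNT3, which extend them, fell with DDC, by 0.78 (adjusted p = 0.00028) and by 1.08 (adjusted p = 0.0053). With SLC6A4 their log2 differences were -0.28 (adjusted p = 0.081) and -0.49 (adjusted p = 0.22).

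Transcription factors of secretory and defence programs were counted as a further list of 13. Of these, 3 of 7 measured fell with DDC and 4 of 9 with SLC6A4, and none rose, beside 8.41% and 9.28% of all genes called lower. EHF, an epithelial ETS factor, averaged 102 normalised reads in the empty-vector cells, 19.8 with DDC and 28.2 with SLC6A4 (log2 differences -2.41 and -1.83, limma adjusted p = 3.2e-07 and 1.7e-06). Its relative ELF3 fell by 0.92 (adjusted p = 0.00049) and by 1.01 (adjusted p = 0.00045). SPDEF, the factor goblet cells depend on, fell by 0.48 (adjusted p = 0.0047) and by 0.45 (adjusted p = 0.0064). XBP1, which expands the secretory apparatus, fell with SLC6A4 (-0.68, adjusted p = 0.0013), and its log2 difference with DDC was -0.22 (adjusted p = 0.29).

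Receptors for the cytokines and growth factors that induce these genes showed no common direction. Of 11, 9 were measured with DDC, where IL1RAP, the co-receptor for interleukin-1, fell (-1.29, limma adjusted p = 0.0155, a gene that passed the filter only through the empty-vector libraries) and IL6R rose (0.88, adjusted p = 0.0021), and 8.94% of all genes were called higher. With SLC6A4 8 were measured, and IL6R (0.77, adjusted p = 0.0040) and EGFR (0.51, adjusted p = 0.00096) rose, where 10.2% of all genes were called higher. The medians over the receptors were -0.12 and 0.09.

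**Figure D3:**
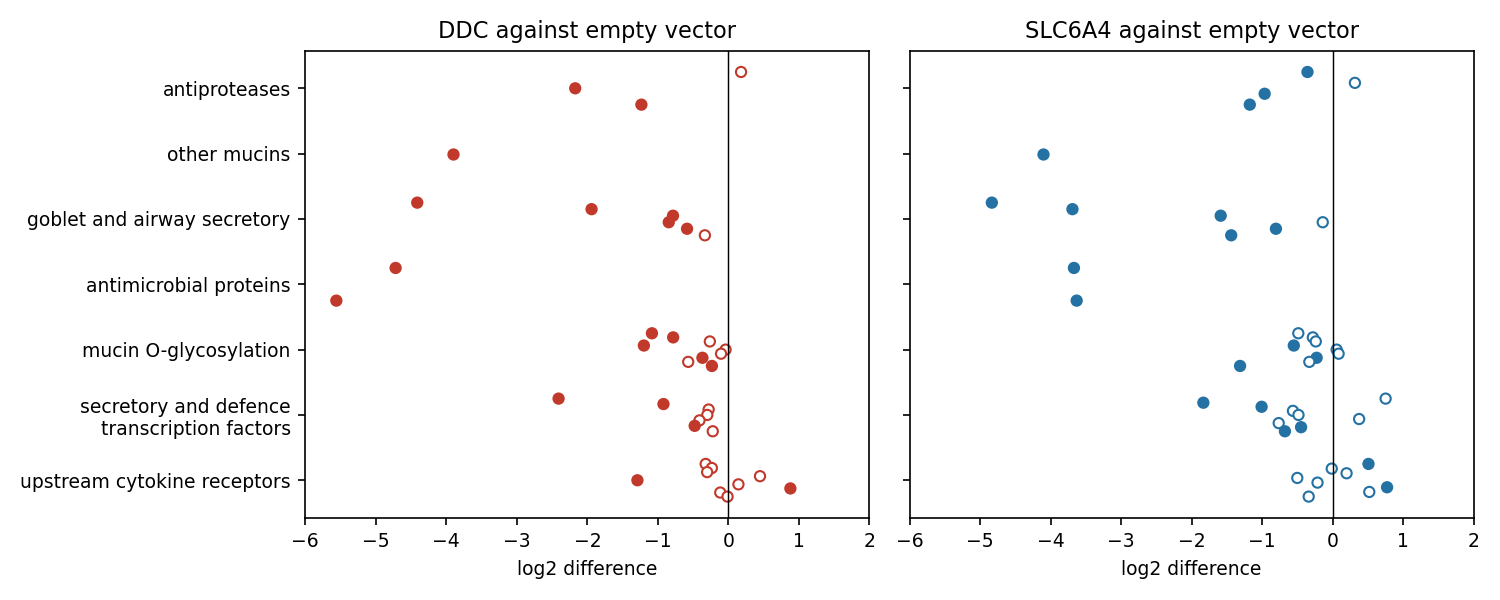
Log2 difference from the empty vector for every measured gene of the 7 related lists, DDC on the left and SLC6A4 on the right; filled points passed the limma test at an adjusted p under 0.05 and open points did not. Filled points of the goblet, mucin, antimicrobial and antiprotease lists all lie left of 0, and those of the cytokine receptors lie on both sides with DDC. MUC6, BPIFA1, FCGBP and, with DDC, SERPINA1 and IL1RAP passed the filter only through the empty-vector libraries, which largely fixed their direction.

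PI3 (chromosome 20, 45174902 to 45176544, GRCh38), SLPI (45252239 to 45254564) and WFDC2 (45469753 to 45481532) lie in one cluster of antiprotease genes. Reaching 200 kb beyond PI3 and WFDC2, 44 annotated genes were found, of which 41 are not members and 6 of those were measured. SDC4, a cell-surface proteoglycan gene 174 kb from the start of PI3, had log2 differences of 0.28 (SE 0.12) and 0.05 (SE 0.12). Only PIGT, of the enzyme that attaches lipid anchors to proteins, was called among the 6 by limma, higher with DDC (0.27, adjusted p = 0.033) and lower with SLC6A4 (-0.26, adjusted p = 0.0089). On chromosome 11, MUC5AC (1157953 to 1201138) and MUC5B (1223066 to 1262172) stand with MUC6 and MUC2. Of 12 other genes in reach 4 were measured: MUC6 and MUC5B-AS1 were called lower in both forms, but both passed the filter only through the empty-vector libraries, which fixed their direction. The flanking genes AP2A2 (log2 differences -0.07 and -0.13) and TOLLIP (0.12 and -0.19) were not called. Of all genes tested, 8.41% were called lower and 8.94% higher with DDC, and 9.28% and 10.2% with SLC6A4.

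**Figure D4:**
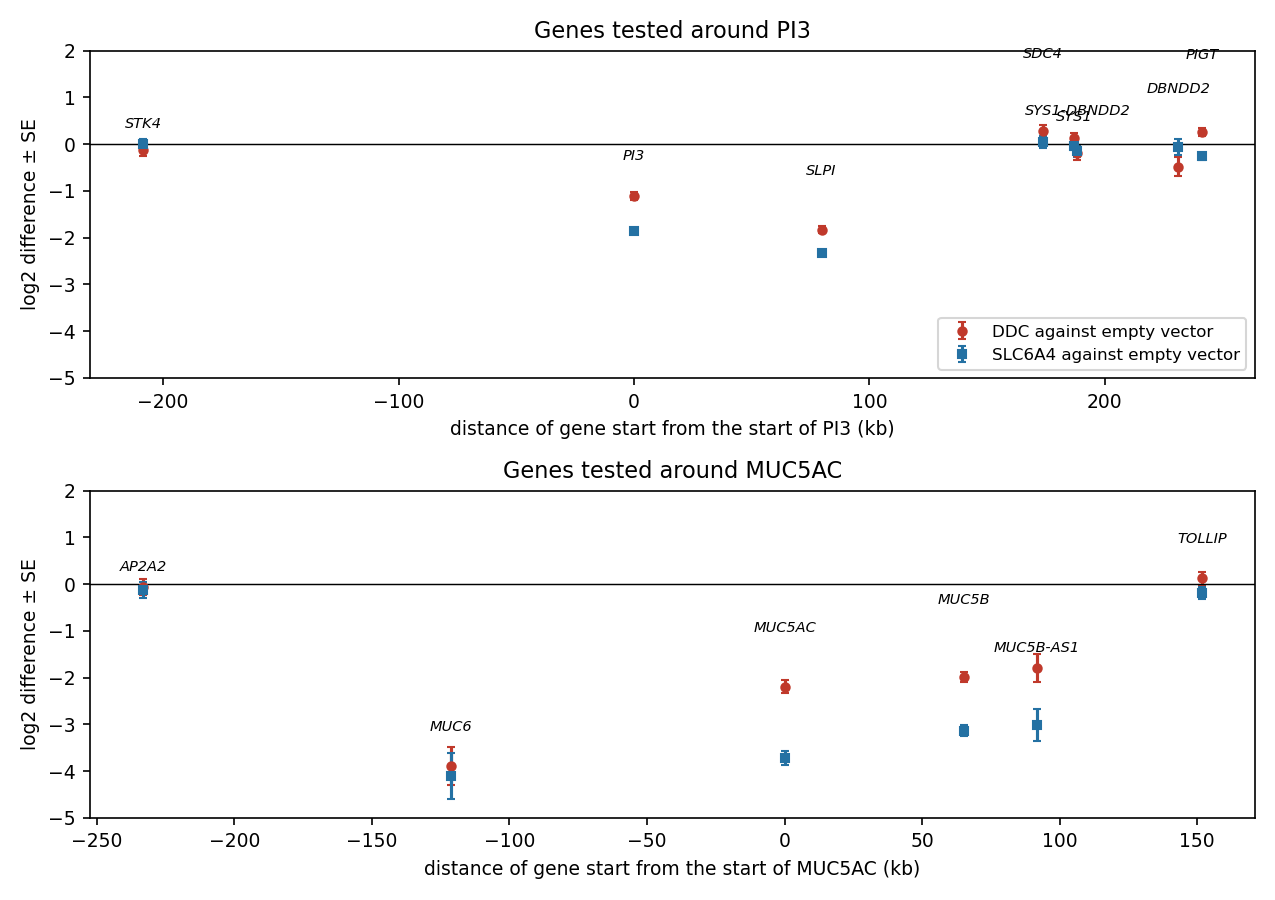
Log2 difference from the empty vector (with SE) of the measured genes around PI3 (top) and around MUC5AC (bottom), against the distance of each gene's start from the start of PI3 or MUC5AC in kb; DDC in red, SLC6A4 in blue. PI3 and SLPI lie well below their neighbours near 0, and the low mucin points lie between AP2A2 and TOLLIP. MUC6 and MUC5B-AS1 passed the filter only through the empty-vector libraries.

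ChIP read pairs of both antibodies and the input were counted by the authors over 19535 regions, which are named for H3K4me3Q5ser. H3K4me3 was thus measured only in regions listed for the serotonylated mark. A region was taken as a promoter region of a member when it lay within 1000 bp of the outermost start of the gene in GENCODE version 44. By this rule PI3 has 1 region and MUC1 has 2, and the other 8 members have none. Among all genes tested in the RNA comparison with DDC 84.1% have such a region, and 83.9% of those at least as abundant per length as the lowest measured member, beside 1 of the 6 measured members by this rule. SLPI has an H3K4me3 peak 18 bp from its start (45253889 to 45254546) in the authors' list of H3K4me3 peaks, without a counted region, so no change of either mark was measured there. The nearest counted region lies 10468 bp from the start of LCN2, 80359 bp from MUC5B and 145472 bp from MUC5AC.

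AGR2 needed a second rule, added after the data were seen. Its outermost start comes from 1 long transcript, 27787 bp from the nearest region, but 6 of its 7 annotated transcripts start within 1000 bp of a region on chromosome 7 (16801823 to 16805646, 3824 bp), which holds no start of another gene. Taking any annotated transcript start in place of the outermost one adds this region and no other. The stretch before the RefSeq start of AGR2 lies inside it and is shown because both marks changed there; the letters are from RefSeq, GRCh38.p14, chr7:16805000-16805249, minus strand, 5′ to 3′, with capitals at matches to the C/EBP motif TTNCNNAA on either strand.
AGR2: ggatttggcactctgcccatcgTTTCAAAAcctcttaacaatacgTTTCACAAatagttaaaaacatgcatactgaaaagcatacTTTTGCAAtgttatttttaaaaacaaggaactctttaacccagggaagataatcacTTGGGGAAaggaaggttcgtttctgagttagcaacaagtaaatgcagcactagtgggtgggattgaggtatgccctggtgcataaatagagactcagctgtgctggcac

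The serotonylated mark fell steeply at this AGR2 region in both forms. In CPM of the read pairs in regions, TMM-scaled within an antibody, H3K4me3Q5ser was 43.9, 45.9 and 46.2 in the empty-vector libraries, 15.3, 15.4 and 16.2 with DDC, and 13.2, 12.3 and 12.7 with SLC6A4. The empty-vector libraries lay far above the rest, and the SLC6A4 libraries were the lowest. The log2 difference was -1.54 (SE 0.05, edgeR adjusted p = 3.4e-51) with DDC, the 54th lowest of 19535 regions, and -1.84 (SE 0.05, adjusted p = 6.8e-62) with SLC6A4, the 133rd lowest. The background is large: 61.2% of regions were called in either direction with DDC and 82.5% with SLC6A4.

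H3K4me3 also fell at the AGR2 region, by less. It was 89.7, 84.7 and 83.1 CPM in the empty-vector libraries, 59.9, 53.1 and 56.9 with DDC, and 37.0, 43.9 and 37.9 with SLC6A4, and the groups did not overlap. The log2 difference was -0.60 (SE 0.07, edgeR adjusted p = 1.3e-14) with DDC, where 17.6% of 18972 regions were called, and -1.11 (SE 0.07, adjusted p = 1.4e-50) with SLC6A4, where 61.5% were. The difference between the changes of the marks, H3K4me3Q5ser minus H3K4me3, was -0.93 (SE 0.09, edgeR adjusted p = 9.8e-19) with DDC, where 15% of 19529 regions were called, and -0.72 (SE 0.09, adjusted p = 6.5e-12) with SLC6A4, where 29.2% were. CPM values cannot be compared between antibodies, since each is a share of its own library.

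The input was lower at AGR2 too. It was 71.1, 76.7 and 75.4 CPM in the empty-vector libraries and 51.1, 50.8 and 54.5 with DDC, from 76 to 138 read pairs a library, a log2 difference of -0.51 (SE 0.12, edgeR adjusted p = 0.0011), where 6.30% of 18025 regions were called. Its part in the fall of the marks was examined by an interaction added after the data were seen. Relative to the input, H3K4me3Q5ser at AGR2 fell with DDC (log2 difference -0.998, SE 0.13, edgeR adjusted p = 2.5e-10), where 5.51% of regions were called, while for H3K4me3 the difference was -0.07 (SE 0.14, adjusted p = 0.91), where 0.649% were. Input values of SLC6A4 cells were not used here, so the changes of the marks with SLC6A4 were not set against an input.

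At the PI3 region (chromosome 20, 45174930 to 45175970, 1041 bp), which begins 28 bp downstream of the gene start and touches 2 of its 3 exons, H3K4me3Q5ser fell in both forms. It was 7.59, 6.19 and 8.13 CPM in the empty-vector libraries, 4.16, 2.97 and 3.80 with DDC, and 4.63, 3.96 and 3.84 with SLC6A4. The empty-vector libraries stood above the others, and the DDC and SLC6A4 libraries overlapped. The log2 difference was -1.005 (SE 0.12, edgeR adjusted p = 8.4e-12) with DDC, the 344th lowest of 19535, and -0.83 (SE 0.11, adjusted p = 3.5e-11) with SLC6A4, the 2076th lowest. Of all regions, 61.2% and 82.5% were called in either direction.

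H3K4me3 at PI3 was 22.05, 22.2 and 23.7 CPM in the empty-vector libraries, 19.2, 19.8 and 14.996 with DDC, and 12.9, 16.7 and 13.2 with SLC6A4. It fell with SLC6A4 (log2 difference -0.67, SE 0.13, edgeR adjusted p = 1.3e-06), where 61.5% of regions were called. With DDC the difference was -0.35 (SE 0.13) and missed the threshold at an adjusted p of 0.051, which 2 alternatives crossed (0.048 with scaling by library size alone, and 0.038 without DDC replicate 2 of H3K4me3). H3K4me3Q5ser fell more than H3K4me3 with DDC (interaction -0.65, SE 0.18, edgeR adjusted p = 0.0064), where 15% of regions were called. Without DDC replicate 2 of H3K4me3Q5ser, however, the interaction was -0.51 with an adjusted p of 0.067. With SLC6A4 the interaction was -0.15 (SE 0.17, adjusted p = 0.56), where 29.2% of regions were called. The input at PI3 was 15.2, 16.7 and 14.7 CPM in the empty-vector libraries and 9.65, 18.5 and 21.5 with DDC (log2 difference 0.07, SE 0.23, adjusted p = 0.92), and relative to it H3K4me3Q5ser was lower by 1.04 (difference -1.04, SE 0.27, adjusted p = 0.0071).

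**Figure D5:**
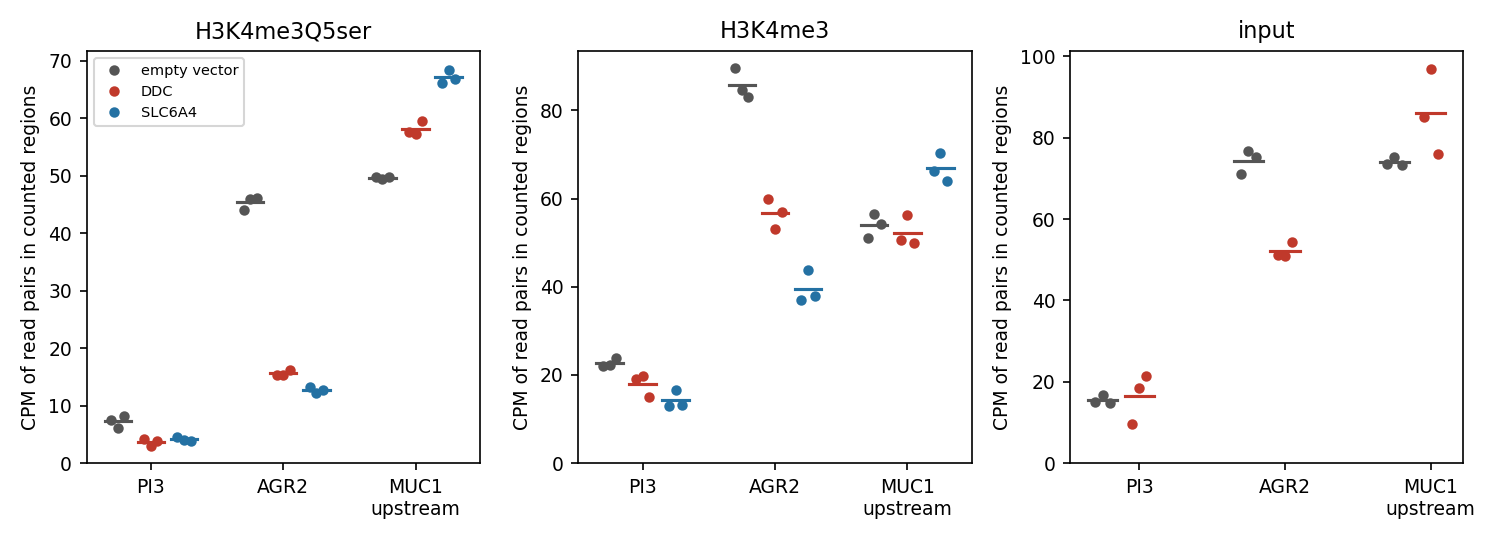
TMM-scaled CPM of H3K4me3Q5ser (left), H3K4me3 (middle) and input (right) at the PI3 and AGR2 regions and the region upstream of MUC1, with libraries as points and means of 3 as bars; empty vector grey, DDC red, SLC6A4 blue, with no SLC6A4 input drawn. At AGR2 the H3K4me3Q5ser libraries drop from 43.9 to 46.2 CPM to at most 16.2, and the input drops from at least 71.1 to at most 54.5.

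Both marks were also compared between the overexpressing forms. For H3K4me3Q5ser the log2 difference, DDC minus SLC6A4, was 0.30 (SE 0.07, edgeR adjusted p = 9.7e-05) at AGR2 and -0.18 (SE 0.14, adjusted p = 0.25) at PI3, where 76.9% of regions were called. For H3K4me3 it was 0.52 (SE 0.08, adjusted p = 8.2e-10) at AGR2 and 0.33 (SE 0.14, adjusted p = 0.031) at PI3, where 60.2% were. The call at PI3 was lost with DESeq2 (adjusted p = 0.097), with scaling by library size alone (0.057) and without any of 4 single libraries (0.11 to 0.18): DDC replicate 1, DDC replicate 2, SLC6A4 replicate 1 and SLC6A4 replicate 3 of H3K4me3. At the long region upstream of MUC1, described next, it was -0.21 (SE 0.03, edgeR adjusted p = 3.8e-08) for H3K4me3Q5ser and -0.35 (SE 0.07, adjusted p = 4.5e-06) for H3K4me3, lower with DDC for both.

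MUC1, with at most 15 RNA reads a library, had counted regions on both sides of its outermost start. The small one (chromosome 1, 155192178 to 155192880) lies 36 bp inside the gene and holds 10 of its 26 transcript starts, and a second, long one (155193060 to 155202813, 9754 bp) begins 144 bp upstream and also holds the starts of THBS3-AS1 and MIR92B, so its reads do not belong to MUC1 alone. The bases before a RefSeq start of MUC1 run from the gap into the long region. They are shown because H3K4me3Q5ser rose on both sides of this start, although with DDC neither rise was called relative to the input. The letters are from RefSeq, GRCh38.p14, chr1:155192917-155193165, minus strand, 5′ to 3′, with no match to any of the 4 motifs searched.
MUC1: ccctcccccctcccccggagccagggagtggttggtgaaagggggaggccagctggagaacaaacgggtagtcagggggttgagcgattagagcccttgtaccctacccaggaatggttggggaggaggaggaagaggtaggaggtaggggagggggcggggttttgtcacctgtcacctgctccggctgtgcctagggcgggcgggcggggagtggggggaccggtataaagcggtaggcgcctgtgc

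At the long region H3K4me3Q5ser was 49.7, 49.5 and 49.8 CPM in the empty-vector libraries, 57.7, 57.2 and 59.5 with DDC, and 66.0, 68.4 and 66.8 with SLC6A4. It rose in both forms, opposite to AGR2 and PI3, by 0.23 (SE 0.04, edgeR adjusted p = 3.0e-08) and by 0.44 (SE 0.03, adjusted p = 1.0e-24) on the log2 scale. These were the 16076th and 15535th lowest of 19535 regions, of which 61.2% and 82.5% were called in either direction. H3K4me3 there rose with SLC6A4 (0.30, SE 0.07, adjusted p = 9.5e-05), and with DDC its log2 difference was -0.05 (SE 0.08, adjusted p = 0.73). The interaction of mark and form was 0.28 (SE 0.09, edgeR adjusted p = 0.014) with DDC, where 15% of regions were called. With SLC6A4 it was 0.14 (SE 0.08, adjusted p = 0.20), where 29.2% were. The DDC value lost its call without H3K4me3 empty-vector replicate 2 (0.25, adjusted p = 0.078) and without H3K4me3 DDC replicate 3 (0.25, adjusted p = 0.073). The input there was 73.5, 75.3 and 73.2 CPM in the empty-vector libraries and 85.2, 97.0 and 76.0 with DDC (log2 difference 0.23, SE 0.10, adjusted p = 0.18), and relative to it H3K4me3Q5ser differed by 0.02 (SE 0.11, adjusted p = 0.95).

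The small MUC1 region was thinly covered, with 30 to 71 read pairs of H3K4me3Q5ser a library. It rose in both forms, by 0.55 with DDC (SE 0.17, edgeR adjusted p = 0.0038) and by 0.45 with SLC6A4 (SE 0.16, adjusted p = 0.0079), where 61.2% and 82.5% of regions were called. Without DDC replicate 1 the first was 0.36 (adjusted p = 0.13), and without SLC6A4 replicate 2 the second was 0.35 (adjusted p = 0.070). H3K4me3 differences there were 0.14 (SE 0.35) and 0.01 (SE 0.34), with 6.5 to 22.5 pairs a library. The input of empty-vector and DDC cells held 8 to 13 pairs a library. Relative to it, the H3K4me3Q5ser difference with DDC was 0.76 (SE 0.41, edgeR adjusted p = 0.30).

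The level of the marks is given in CPM per kilobase of empty-vector cells, not set against the input. The regions are those named for H3K4me3Q5ser, so the ranks of both marks hold only among them. For H3K4me3 the AGR2 region (22.4) exceeded 94.6% of the 19535 regions and the PI3 region (21.8) 94.0%, against a median of 7.98. For H3K4me3Q5ser AGR2 (11.9) exceeded 84.6% and PI3 (7.01) 54.0%, against a median of 6.60. Both MUC1 regions lay below the median of either mark. The input differed between the regions too. In empty-vector cells it averaged 74.4 CPM over the 3824 bp at AGR2 and 15.5 over the 1041 bp at PI3. It averaged 74.0 over the 9754 bp upstream of MUC1, and how far the levels follow the input was not tested.

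CUT&Tag of H3K4me3 in 3 of the 11 libraries, each the only one of its kind, gave a further look at AGR2 and MUC1, without replicates and so without a test. The peak at AGR2 (chromosome 7, 16803502 to 16805299) had 4.01 CPM in control cells, 3.14 with SLC6A4 and 1.59 with SLC6A4 and a short hairpin RNA against TGM2. The ratio of the hairpin library to the SLC6A4 library was 0.505, and 0.0864% of the 13882 peaks in that table had a lower one; the median was 0.944. The ratio of SLC6A4 to control was 0.783, with 4.22% of peaks lower and a median of 1.07. The peak near MUC1 (chromosome 1, 155193703 to 155194254) had 9.02, 10.8 and 8.58 CPM in the same order. The authors' table is named for peaks that do not depend on the Q5 mark, the depth of these libraries is unknown, and no CUT&Tag peak in the authors' 2 peak lists lay within 1000 bp of a transcript start of the other 8 members.

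LCN2 has no counted region. The bases before its start are shown because with DDC LCN2 (log2 difference -3.63, SE 0.09) and AGR2 (-3.53, SE 0.09) were the measured members furthest below the empty vector. With SLC6A4, LCN2 (-1.84, SE 0.06) and PI3 (-1.86, SE 0.05) were the least far below of the 6 measured. The bases are from RefSeq, GRCh38.p14, chr9:128149265-128149440, plus strand, 5′ to 3′, the part of the stretch before the RefSeq start that no annotated LCN2 exon covers. Capitals mark, in order, a pair of overlapping matches to the NF-kB motif (GGGA, any 3 bases, TCC), 1 on each strand, a match to the C/EBP motif and a match to the AP-1 motif TGANTCA.
LCN2: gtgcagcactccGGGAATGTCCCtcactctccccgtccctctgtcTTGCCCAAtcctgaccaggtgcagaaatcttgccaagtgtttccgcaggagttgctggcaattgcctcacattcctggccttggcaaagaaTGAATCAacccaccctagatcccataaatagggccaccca

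The motifs were searched on both strands of the 250 bases before each RefSeq start, overlaps counted, and AGGAAGT, a motif of ETS factors such as ELF3 and EHF, was the last of the 4. Of 35116 promoters of that length 4.31% held the NF-kB motif, 6.57% the AP-1 motif, 33.2% the C/EBP motif and 7.01% the ETS motif. RefSeq entries matched 6 of the 10 members: LCN2, AGR2, MUC1, WFDC2, MUC16 and PIGR. PI3, SLPI, MUC5AC and MUC5B were not matched. AGR2 held the C/EBP motif at 4 places, WFDC2 at 1, and 1 of the starts of MUC16 held it together with the AP-1 motif; LCN2 alone of the 6 held the NF-kB motif. The AGR2 stretch was 40.4% G and C, beside a median of 58.0% over all promoters. The share of promoters with as many C/EBP matches was not counted. A match is a match of letters and shows no binding.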

How the data were processed

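RNA was compared between 3 samples each of empty-vector, DDC and SLC6A4 cells. The deposited RNA values are DESeq2-normalised signal, with library scaling specific to each table, per the file headers. In every library 100% were whole multiples of 1 step per library (tolerance 1e-06), so reads were recovered. The submitters' processing notes name HISAT2 2.1.0 and GRCh38. The authors' DESeq2 log2 fold changes and p-values, deposited in the same tables, are not quoted. The deposited ChIP table holds estimated counts from featureCounts, per the file headers, with a strand setting on unstranded regions; 9.78% of cells are not whole and were rounded. The deposited CUT&Tag table holds CPM, and its library totals are not given in the sources used here.

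RNA was tested with limma 3.58.1 on log2(value + 1), on which fold changes of low genes are understated, and ChIP with the edgeR 4.0.16 quasi-likelihood F-test (TMM scaling, filterByExpr), in R 4.3.3. Tests were two-sided, with Benjamini-Hochberg adjustment over every gene or region tested. DESeq2 1.42.0 served as an alternative. In the RNA tables limma called 2281, 2579 and 1789 genes (DDC, SLC6A4, DDC against SLC6A4), and edgeR on the recovered reads called 2312, 2594 and 1812. The fits were tested on simulated data. Alternatives were pseudocounts, filters, scaling, tools, the replicate block, the promoter window and left-out libraries. The rule that adds AGR2 and the fits relative to input were chosen after seeing the data. GENCODE version 44 gave positions, and 62625 of 62703 gene identifiers matched.

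The members and lists were chosen with earlier results of these data known. Named were the 10 members, up to 4 called genes of each related list by smallest adjusted p, the 2 genes most like each measured member, and up to 4 called neighbours within 200 kb. Genes of further cell types served as markers: of the leukocyte, endothelial and fibroblast lists only CD68, PECAM1 and COL1A1 were measured, the last 2 lower in both forms (PECAM1 log2 differences -1.49 and -2.34, COL1A1 -1.64 and -0.99). In the DDC comparison COL1A1 passed the filter only through the empty-vector libraries, which largely fixed its direction. 1 further marker list is not reported here.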

Additional observations from a re-analysis of the deposited data

Results flagged for a closer look

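At 3 regions the change of H3K4me3Q5ser from the empty vector differed from the change of H3K4me3 by the edgeR test of the difference itself. Of all 19529 regions, 15% were called in this test with DDC and 29.2% with SLC6A4. At the AGR2 region the serotonylated mark fell further by 0.93 on the log2 scale with DDC (-0.93, adjusted p = 9.8e-19) and by 0.72 with SLC6A4 (-0.72, adjusted p = 6.5e-12). At the PI3 region it fell further with DDC (-0.65, adjusted p = 0.0064). At the long region upstream of MUC1 the difference had the opposite sign with DDC (0.28, adjusted p = 0.014). The calls at PI3 and upstream of MUC1 were lost when certain single libraries were left out, as given above.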

How the results depend on the processing

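The members were selected on their RNA differences, so nothing is read from how those held under the alternatives. DESeq2 called fewer genes and regions: 1455 with DDC and 1675 with SLC6A4 in RNA (2281 and 2579 by limma), and 1633 regions for H3K4me3 with DDC (3344 by edgeR). At PI3, H3K4me3 with DDC passed with scaling by library size alone (-0.35), and DDC against SLC6A4 failed with DESeq2 (0.34) and with scaling by library size alone (0.29); the cause was not tested. Leaving out 1 library gave -0.43 to -0.22 and 0.25 to 0.46 for these, and -0.77 to -0.51 for the PI3 interaction with DDC. No counted region covers the outermost start of a member, so a window of no width gave no value. A wider window gave the same regions, so the PI3 values were carried over without a new fit and are no check. Samples with the same replicate number did not deviate together (correlations -0.11 to 0.02); the replicate block gave 2369, 2497 and 1720 called genes, and -1.54 for H3K4me3Q5ser with DDC at AGR2, and it changed no call on a member. Counts were low in the input and at the small MUC1 region.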
